A study of Mus musculus with 21 samples.

Results

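The antiviral interferon-stimulated genes examined here are 52 named mouse genes, among them the Ifit, Mx, Isg15, RIG-I-like sensor, Schlafen, PARP, TRIM and PYHIN genes. They were found in the deposited table by matching Ensembl gene IDs, without their version, to symbols. All 52 were among the 23250 genes of the table, and all 52 passed the filter on low counts that left 13468 genes for testing. RNA was sequenced from macrophages grown for 7 days from bone marrow of C57BL/6J mice in medium with 2.5% supernatant of cells that produce GM-CSF, a growth factor for myeloid cells. The series describes the cells as deficient in the mannose receptor (MR), an endocytic lectin encoded by Mrc1, and every group, controls included, shares this. Untreated cells were collected at 0 h, and the other groups received FcMR, or an isotype control in its place, for 4, 12 or 24 h. FcMR is a recombinant fusion of the extracellular region of the MR with the Fc region of human IgG1. Each of the 7 groups has 3 libraries, 21 in all. The study asked what the soluble MR does to macrophages. No untreated library was taken at 4, 12 or 24 h, so the control protein and the hours in culture cannot be told apart in any comparison with untreated cells. The labels do not say that the 3 libraries of a group came from separate mice or cultures, so the p-values measure only the spread between these libraries, which may be technical.

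Type I interferons bind the receptor made of IFNAR1 and IFNAR2, and the kinases JAK1 and TYK2 then pass the signal to the transcription factor complex ISGF3, which binds the interferon-stimulated response element (ISRE) in the promoters of antiviral genes. In macrophages the products of these genes sense foreign nucleic acid, block translation or particle release, and limit the signal itself. In bulk RNA, fewer cells of a type and less RNA per cell cannot be told apart.

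Promoters were examined because the members moved together in the counts described further on. RefSeq promoter windows of build GRCm38.p6, from 250 bases before to 50 bases after the gene start, were found for 40 of the 52 members, in 51 windows. The ISRE core was searched as GAAA, any pair of bases and GAAA again, on both strands, with overlapping matches allowed. It was present in 24 of the 51 member windows, 47.1%, against 3.44% of all 32851 windows. Counted by gene, 20 of the 40 members held it, against 3.99% of all genes. The gamma-activated sequence TTCNNNGAA was present in 9.80% of the member windows against 8.30% of all. The NF-kB motif was present in 11.8% against 8.46%. Some ISRE cores overlap each other, and a match in these letters is a description of the window and not a measured binding site.

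The 60-base stretches below are shown for 8 members whose levels carry the results that follow. Each is read 5′ to 3′ along the gene's strand, with the ISRE core matches, on either strand, in capitals.
Isg15: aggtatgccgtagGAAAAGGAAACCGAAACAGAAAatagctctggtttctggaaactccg
Ifit1: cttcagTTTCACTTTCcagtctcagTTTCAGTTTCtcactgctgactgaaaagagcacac
Ifit3: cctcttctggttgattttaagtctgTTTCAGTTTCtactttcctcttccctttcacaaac
Ifit3b: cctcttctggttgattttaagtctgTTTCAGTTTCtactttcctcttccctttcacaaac
Rsad2: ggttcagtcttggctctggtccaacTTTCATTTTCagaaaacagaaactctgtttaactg
Bst2: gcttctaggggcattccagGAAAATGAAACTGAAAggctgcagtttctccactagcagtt
Ddx60: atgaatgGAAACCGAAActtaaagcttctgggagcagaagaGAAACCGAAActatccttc
Ifi205: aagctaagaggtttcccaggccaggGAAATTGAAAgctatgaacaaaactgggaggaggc

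The Isg15 stretch lies at chr4:156200850-156200909 on the minus strand and holds 3 overlapping cores, the first 78 bases before the start. The Ifit1 stretch (chr19:34640779-34640838, plus strand) holds 2 separate cores. The stretches of Ifit3 (chr19:34583382-34583441) and Ifit3b (chr19:34607778-34607837), both on the plus strand, are printed alike, letter for letter. Those of Rsad2 (chr12:26456538-26456597), Bst2 (chr8:71537562-71537621) and Ifi205 (chr1:174031855-174031914) are on the minus strand, and that of Ddx60 (chr8:61928027-61928086) is on the plus strand.

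**Figure D1:**
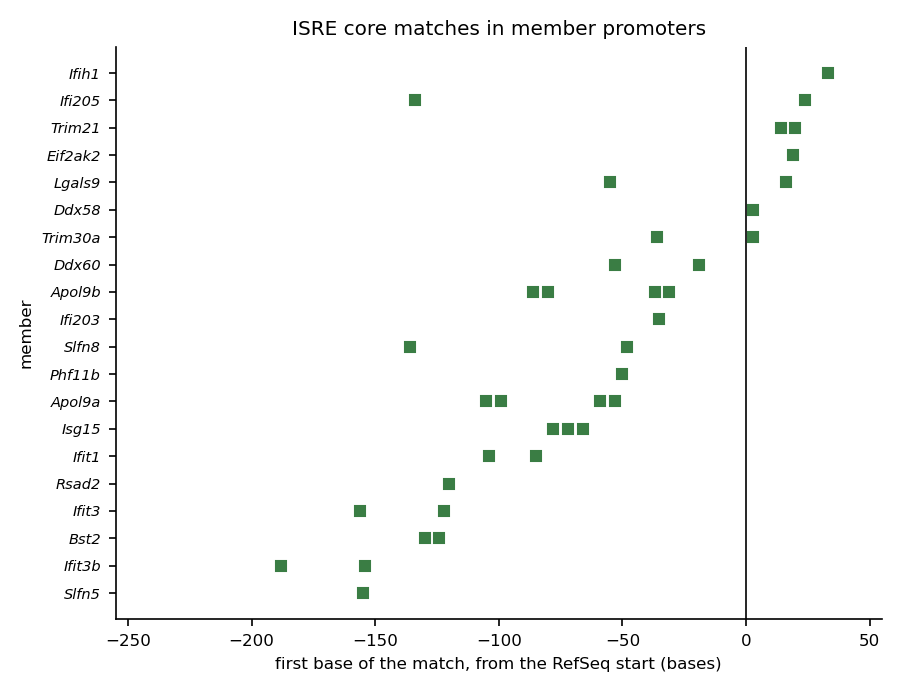
Distance of each ISRE core match from the RefSeq gene start, in bases (x axis, 0 is the start, negative values lie before it), for the 20 members with a match (y axis). Each square is the first base of a match, over all windows of that gene.

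The libraries held between 5532225 and 66729533 counts, 12.1-fold apart, and 3 counts corresponded to 0.0450 to 0.542 CPM, the count relative to the total of its library, before TMM scaling. Replicate libraries correlated at r = 0.92 to 0.987, across genes, on log2 CPM. Mrc1 had 0 to 11 counts in every library, at most 0.628 CPM. Isotype 4 h replicate 3 and FcMR 12 h replicate 1 carry title numbers that would be in sequence if exchanged. By its counts, isotype 4 h replicate 3 was closest to isotype 12 h replicate 3, FcMR 12 h replicate 1 was closest to FcMR 24 h replicate 2, and isotype 4 h replicate 1 was closest to FcMR 4 h replicate 1. Libraries also differed in the level of GC-rich against GC-poor transcripts. Between the GC-richest and GC-poorest genes tested (at least 57.3% and at most 40.8% GC) this tilt was -0.825, -1.582 and 0.641 (log2) in the isotype 4 h libraries, -0.722, 0.722 and 0.8 in the FcMR 12 h libraries, and -0.378, -1.3 and 0.398 in the FcMR 24 h libraries. The isotype 24 h libraries lay between -0.1 and -0.053. Where a correction for transcript GC content changed a member's call between FcMR and isotype, the corrected value is given beside it or with the intervals further on.

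Nearly every member was higher in isotype-treated cells than in untreated cells. By edgeR's quasi-likelihood test, 51 of 52 were called higher at 4 h (adjusted p under 0.05), against 20.4% of all genes tested, and none was called lower, against 15.2%. The median log2 difference was 3.58, an 11.9-fold level, against -0.00 over all genes. All 3 isotype libraries lay above all 3 untreated libraries in 50 members, against 23.8% of genes. At 12 h, 50 members were higher and 1 was lower, against 2965 and 2637 of the 13468 genes (41.6% of genes called either way), with a median of 2.99. At 24 h, 47 were higher and 2 lower, against 21.3% and 20.9% of genes, with a median of 2.03. With FcMR the numbers called higher than untreated were 52, 51 and 49 (22.3%, 24.7% and 26.0% of genes) and the numbers called lower 0, 1 and 1 (25.9%, 23.4% and 25.4%), with medians of 4.46, 3.66 and 2.62. The isotype and FcMR comparisons share the untreated libraries.

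**Figure D2:**
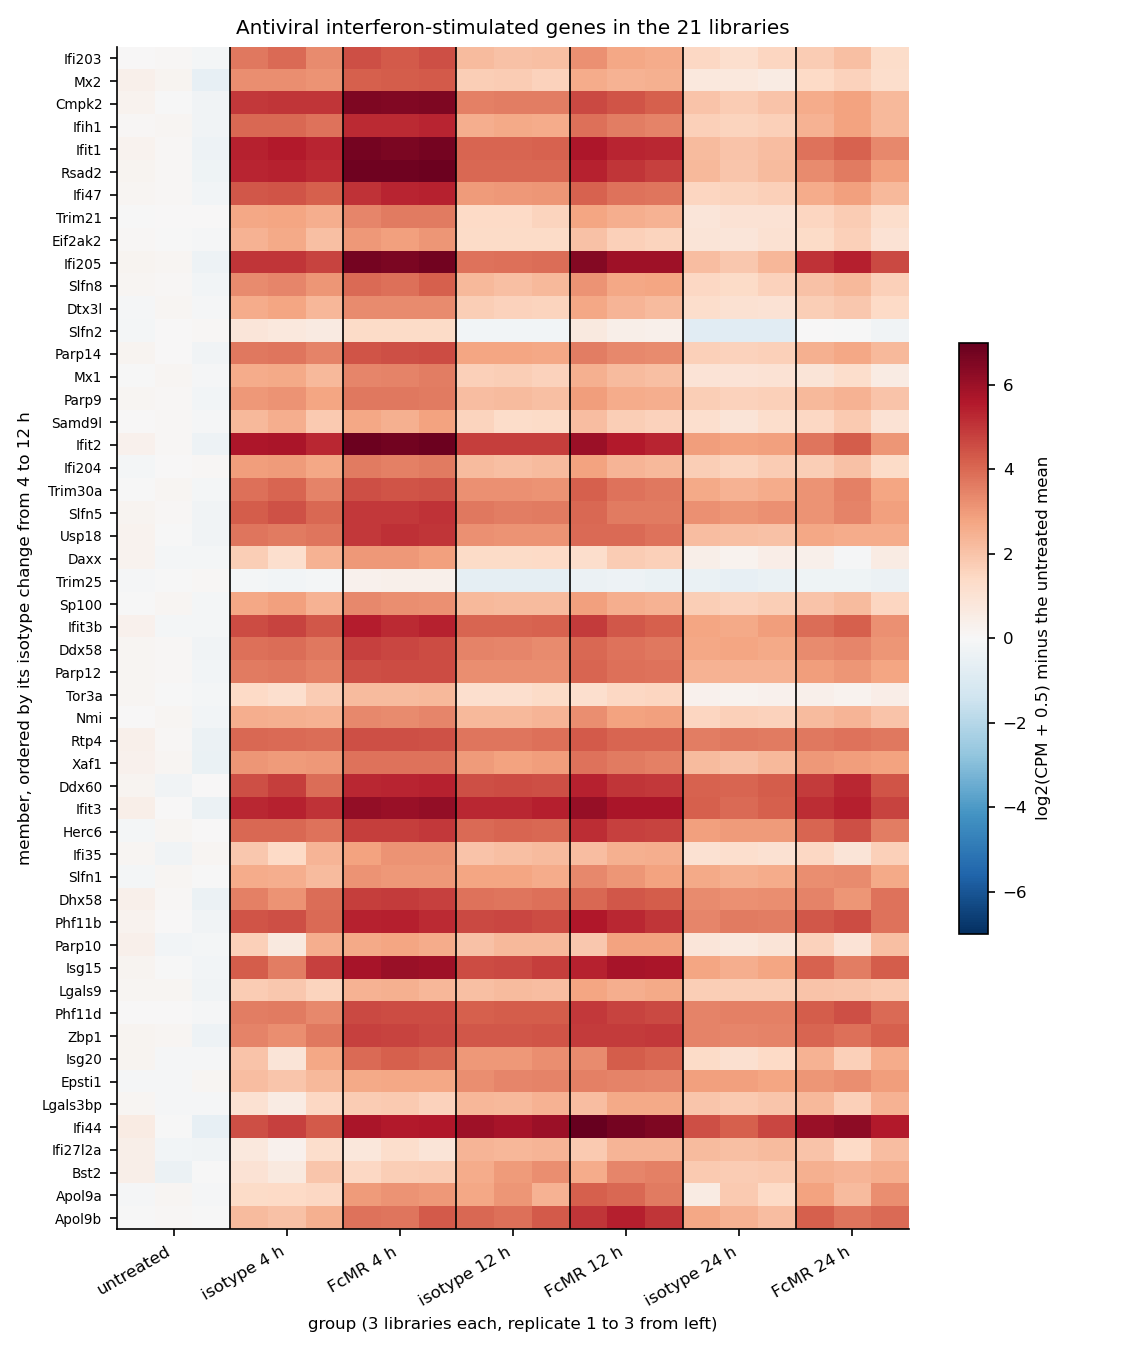
Level of the 52 members (rows) in the 21 libraries (columns), as log2(CPM + 0.5) minus the mean of the 3 untreated libraries. Rows are ordered by the change from 4 to 12 h with isotype, from the largest fall (top) to the largest rise (bottom). Trim25 and Slfn2 are the rows with values below the untreated mean at 12 and 24 h with isotype.

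FcMR added to this rise. At 4 h, 48 of 52 members were higher with FcMR than with isotype, against 8.62% of all genes tested, and none was lower. The median difference was 0.86 (log2), 1.81-fold, against -0.07 over all genes, and the groups did not overlap in 49 members, against 13.5% of genes. At 12 h, 34 were higher (8.61% of genes), with a median of 0.63 or 1.54-fold, and the groups stood apart in 43 (17.5% of genes). At 24 h, 34 were higher (11.4% of genes), with a median of 0.60 or 1.51-fold, and the groups stood apart in 38 (17.8% of genes). No member was called lower with FcMR at any time, against 9.13%, 7.49% and 9.44% of genes. In all, 30 members were higher at each of the 3 times, against 3.66% of genes, 8 at a pair of times (4.33%), 10 at a single time (9.04%) and 4 at none (83.0%). The 4 were Bst2, Samd9l, Parp10 and Ifi27l2a. The 4 h calls of Eif2ak2, Slfn1, Sp100 and Lgals3bp were each lost in some of the fits that left out a 4 h library. With only the compared groups in the fit, the 4 h calls of Ifi203, Ddx60, Trim30a, Eif2ak2, Lgals3bp and Daxx were lost. The 12 h calls of Ifit2, Ifi203, Ddx60, Rtp4, Trim25, Phf11b and Apol9a were each lost in some of the fits that left out a 12 h library.

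**Figure D3:**
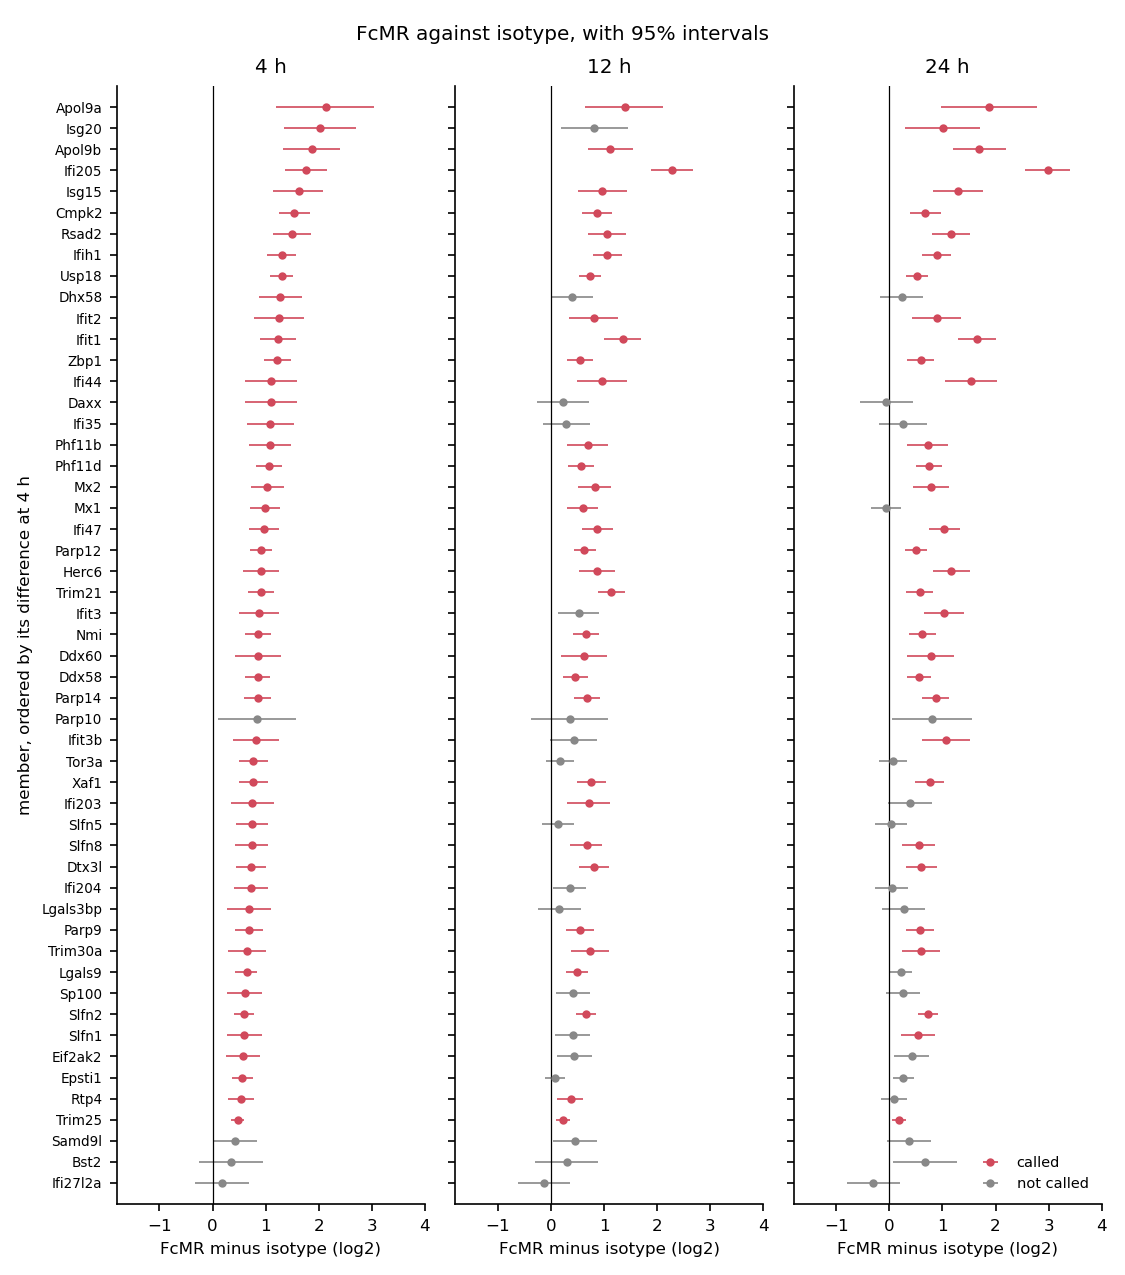
FcMR minus isotype (log2, x axis) for each member (y axis, ordered by the 4 h value) at 4, 12 and 24 h, with 95% intervals from the edgeR fit. Red points were called at adjusted p under 0.05 and grey points were not. The called points number 48, 34 and 34, all above 0.

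Ifit1, Ifit2, Rsad2 and Cmpk2 had their highest means at 4 h under both treatments and fell by 12 h. Rsad2 encodes viperin, an enzyme that makes a chain-terminating nucleotide, and Cmpk2, its neighbour on chromosome 12, encodes a nucleotide kinase. Rsad2 (chr12:26442746-26456452, minus strand, GRCm38) was at 55.1, 51.3 and 38.3 CPM in the untreated libraries, 1966, 2008 and 1805 with isotype at 4 h, and 5312, 5408 and 5556 with FcMR. The 3 groups did not overlap at 4 h, and the order untreated, isotype, FcMR held at every time. By 24 h its levels had fallen to 228, 188 and 227 CPM with isotype and 485, 599 and 353 with FcMR. FcMR exceeded isotype by 1.49, 1.06 and 1.16 (log2) at 4, 12 and 24 h (adjusted p = 9.60e-06, 0.000210 and 6.54e-05). Cmpk2 differed by 1.54, 0.86 and 0.68 (adjusted p = 6.71e-07, 0.000168 and 0.00140).

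The Ifit proteins bind viral RNA and hold back its translation. Ifit1 (chr19:34640871-34650009, plus strand) was at 27.6, 24.5 and 17.6 CPM untreated, 993, 1076 and 934 with isotype at 4 h, and 2381, 2252 and 2436 with FcMR. At 24 h the isotype libraries were at 108, 92.2 and 105 CPM and the FcMR libraries at 319.7, 402 and 239.6. FcMR and isotype therefore stood apart at both ends of the time course. The Ifit1 difference was 1.24, 1.35 and 1.66 at the 3 times (adjusted p = 4.23e-05, 1.32e-05 and 9.75e-07). Ifit2 differed by 1.26, 0.81 and 0.89 (adjusted p = 0.000630, 0.0158 and 0.00701). The Ifit2 12 h call was lost without isotype 12 h replicate 1 or 2, or without FcMR 12 h replicate 1. Of the rise that isotype and FcMR gave Ifit1 at its peak, 8.03% and 12.7% were left at 24 h.

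Ifit3 and Ifit3b are near-identical copies. Their closest transcripts match at 98.0% over 1697 bases, so the estimated counts of the pair may be divided between them with error. Ifit3 was called higher with FcMR at 4 and 24 h, by 0.87 and 1.03 (adjusted p = 0.00238 and 0.000393), while its 12 h difference was 0.52 (adjusted p = 0.0575, and 0.0176 with the GC correction). With isotype the highest Ifit3 mean was at 12 h, and the change from 4 to 12 h was not called under either treatment. Ifit3b gave 0.82, 0.43 and 1.06 (adjusted p = 0.0101, 0.203 and 0.00148).

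ISG15 is a ubiquitin-like protein that is conjugated to other proteins, HERC6 is the mouse ligase for it, and USP18 removes it and also dampens signalling at the interferon receptor. Isg15 (chr4:156199424-156200818, minus strand) was at 19.7, 16.7 and 15.2 CPM untreated. With isotype it reached 337, 212 and 488 CPM at 4 h and 424, 432 and 496 at 12 h, against 950.4, 1157 and 1077 and then 747, 976 and 913 with FcMR. No isotype library reached the lowest FcMR library at the same time. The isotype 4 h libraries were spread more widely than the others, and their order, replicate 2 lowest and replicate 3 highest, was that of the GC tilt. Isg15 differed by 1.62, 0.96 and 1.29 at 4, 12 and 24 h (adjusted p = 6.42e-05, 0.00472 and 0.000346). With a correction for GC content these values were 1.65, 1.05 and 1.36.

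Usp18 gave a difference that narrowed with time. It was at 296, 272 and 296 CPM with isotype and 667, 765 and 699.7 with FcMR at 4 h, and at 97.2, 94.9 and 91.1 against 144, 132 and 131 at 24 h. The groups stood apart at each time. The difference was 1.30, 0.74 and 0.52 (adjusted p = 1.20e-07, 3.56e-05 and 0.000953). Herc6 differed by 0.91, 0.87 and 1.16 (adjusted p = 0.000720, 0.000862 and 4.35e-05).

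Trim25 was the 1 member not called higher with isotype at 4 h. Its product is a ubiquitin ligase known for its work on the RNA sensor RIG-I. Trim25 (chr11:88999376-89020293, plus strand) was at 300.1, 313 and 327 CPM untreated and 282, 279 and 289 with isotype at 4 h, against 388, 399 and 394 with FcMR. At 4 h the FcMR libraries lay above the untreated ones, and the isotype libraries lay below them. The isotype difference from untreated was -0.15 (adjusted p = 0.0693). It was called lower with no expression filter, with DESeq2 and with the GC correction, while with the authors' own scaling factors it was 0.01. At 12 and 24 h both treatments were below untreated: isotype by -0.63 and -0.50 (adjusted p = 1.95e-07 and 3.19e-06) and FcMR by -0.41 and -0.32 (adjusted p = 2.12e-05 and 0.000291). FcMR exceeded isotype by 0.48, 0.22 and 0.18 (adjusted p = 2.94e-05, 0.0177 and 0.0412). The 12 h call was lost with no expression filter, the authors' factors, only the groups compared, and without any 1 of the 12 h libraries other than FcMR replicate 3. The 24 h call was lost under those 3 settings, with RLE factors, with the replicate block, and without isotype replicate 1 or 2 or FcMR replicate 1 or 2.

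Of the dynamin-like GTPases, Mx1 is known for blocking influenza virus in mice with an intact allele, while laboratory strains such as C57BL/6 carry a defective copy. Mx1 (chr16:97447035-97462907, minus strand) was at 541, 566 and 438 CPM with isotype at 4 h and 949.6, 1017 and 1097 with FcMR, and at 173, 176 and 182 against 165, 209.8 and 133 at 24 h. The groups were apart at 4 h and overlapped at 24 h. The Mx1 difference was 0.99 and 0.60 at 4 and 12 h (adjusted p = 6.21e-05 and 0.00438). At 24 h it was -0.06 (95% interval -0.35 to 0.22, adjusted p = 0.812), while isotype remained 0.98 above untreated (adjusted p = 1.65e-05). Mx2 kept a difference, of 1.03, 0.83 and 0.78 (adjusted p = 8.84e-05, 0.000657 and 0.00148). Eif2ak2 encodes PKR, the kinase that stops translation on double-stranded RNA. It differed by 0.58 at 4 h (adjusted p = 0.0140), and the later values, 0.44 and 0.42, did not pass the test (adjusted p = 0.0612 and 0.0651). The Eif2ak2 4 h call was lost with only the groups compared, and without isotype 4 h replicate 3, FcMR 4 h replicate 1 or FcMR 4 h replicate 3.

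**Figure D4:**
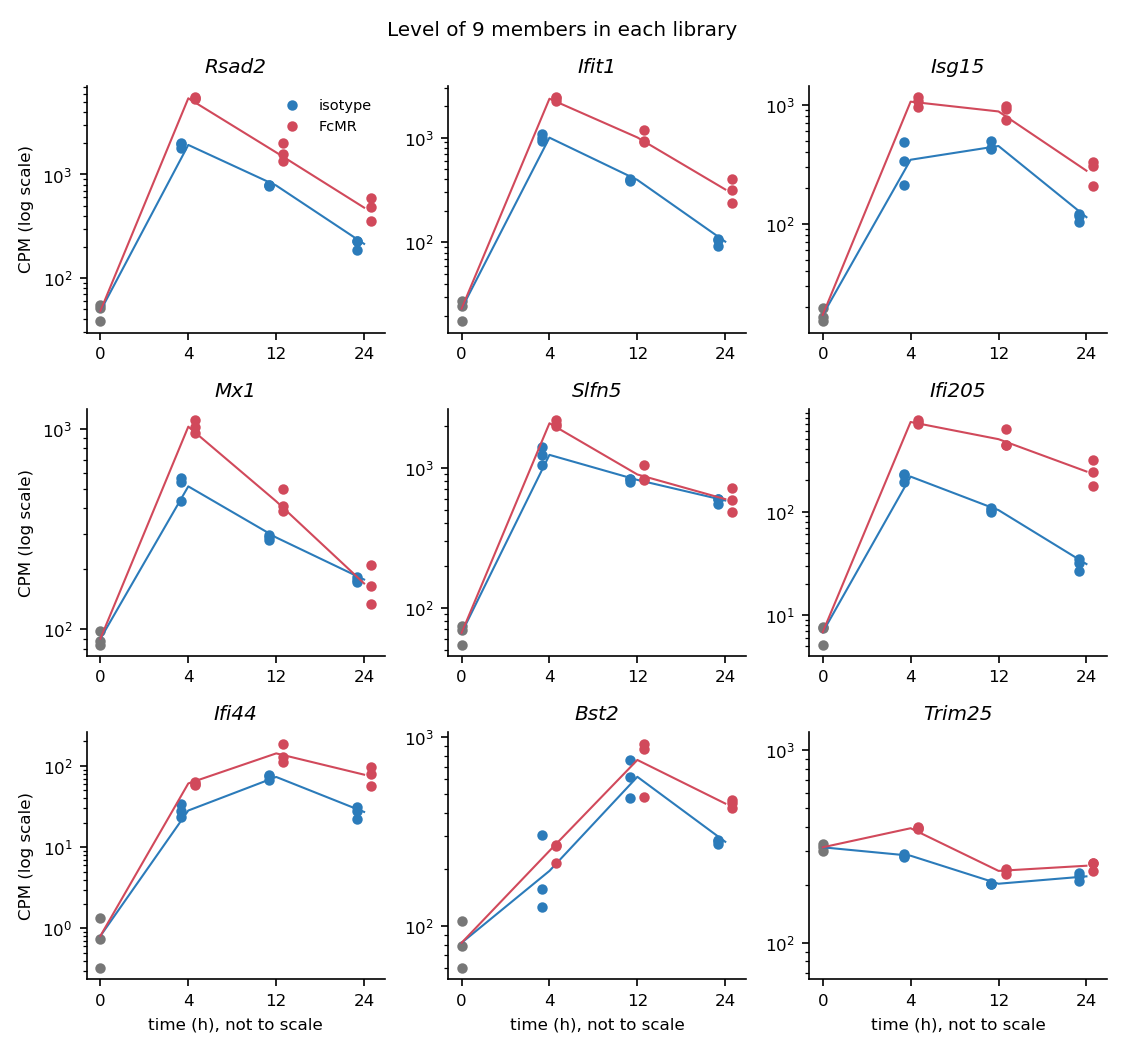
CPM after TMM scaling (log axis) of 9 members in each library, by time in h. Points are libraries (grey untreated, blue isotype, red FcMR) and lines join group means. Rsad2, Ifit1 and Ifi205 stay apart between the treatments at 24 h, Mx1 and Slfn5 overlap there, and Ifi44 and Bst2 are highest at 12 h.

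The RIG-I-like sensors recognise viral RNA in the cytosol. Ddx58 encodes RIG-I, Ifih1 encodes MDA5, and Dhx58 encodes LGP2, which lacks their signalling domains. Ifih1 was at 473, 471 and 406 CPM with isotype at 4 h and 1065, 1079.6 and 1176 with FcMR, from 30.8, 31.9 and 23.6 untreated. The FcMR libraries were above all isotype libraries at each time, and the difference was 1.30, 1.06 and 0.89 (adjusted p = 2.42e-06, 1.31e-05 and 6.58e-05). Ddx58 differed by 0.85, 0.46 and 0.56 (adjusted p = 2.85e-05, 0.00554 and 0.00101). Dhx58 differed by 1.28 at 4 h (adjusted p = 0.000135), and its later values, 0.40 and 0.23, did not pass the test (adjusted p = 0.181 and 0.459). Ddx60, a helicase of the same group, differed by 0.86, 0.62 and 0.78 (adjusted p = 0.00719, 0.0453 and 0.0107). The Ddx60 12 h call was lost with the authors' factors and without both libraries out of title order. It was also lost with each of the 12 h libraries left out in turn.

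Zbp1 encodes a sensor of Z-form nucleic acid that can trigger necroptosis. It was at 123, 106 and 141 CPM with isotype at 4 h and at 222, 224 and 234 at 12 h, against 302, 289 and 273 and then 322, 331 and 341 with FcMR. Its groups were apart at both times, and the difference was 1.22, 0.55 and 0.59 at 4, 12 and 24 h (adjusted p = 1.91e-06, 0.00285 and 0.00138).

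The PYHIN genes on chromosome 1 encode nuclear DNA-binding proteins, and Ifi203, Ifi204 and Ifi205 lie close together there. Ifi205 (chr1:174011998-174031810, minus strand) was at 7.68, 7.54 and 5.15 CPM untreated and at 232, 228 and 193 with isotype at 4 h, against 743, 700.3 and 761 with FcMR. At 12 h it was at 98.6, 103 and 108 CPM with isotype and 627, 440.5 and 436 with FcMR. At 24 h the isotype libraries were at 31.6, 26.5 and 35.0 CPM and the FcMR libraries at 239.8, 314 and 178. The gap between the treatments was wide at every time, and at 24 h the lowest FcMR library was above every isotype library by a large margin. The difference was 1.76, 2.28 and 2.98 (adjusted p = 4.42e-06, 1.46e-07 and 5.48e-09), with a 95% interval of 2.56 to 3.40 at 24 h. Ifi204 differed by 0.72 at 4 h (adjusted p = 0.00201) and by 0.35 and 0.04 later (adjusted p = 0.126 and 0.904). Ifi203 differed by 0.75, 0.71 and 0.39 (adjusted p = 0.0108, 0.0158 and 0.183), and it overlaps Mndal on the same strand.

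The Schlafen genes encode proteins known for control of growth and of viral translation. Slfn5 (chr11:82951349-82964840, plus strand) was at 73.4, 69.7 and 54.4 CPM untreated and at 1239, 1418 and 1054 with isotype at 4 h, against 2068, 1997 and 2180.4 with FcMR. At 12 h it was at 834, 796 and 827 CPM with isotype and 1048, 825 and 814 with FcMR, and at 24 h at 601, 553 and 597 against 590.3, 720.0 and 480.1. The groups were apart at 4 h and overlapped at 12 and 24 h. The difference was 0.75 at 4 h (adjusted p = 0.00123), then 0.13 and 0.03 (adjusted p = 0.660 and 0.920). Without FcMR 12 h replicate 1, the highest of its group, the 12 h value was -0.00. Slfn5 overlaps an antisense gene, and the sources used here do not state that counting used strand.

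Slfn2 had the smallest called rise with isotype at 4 h, 0.75 over untreated (adjusted p = 4.28e-06). FcMR exceeded isotype by 0.60, 0.66 and 0.72 (adjusted p = 0.000169, 4.99e-05 and 1.35e-05). At 12 h Slfn2 was above untreated with FcMR, by 0.47 (adjusted p = 0.000320), while isotype gave -0.19 (adjusted p = 0.114). At 24 h isotype was below untreated by -0.80 (adjusted p = 1.58e-06) and FcMR gave -0.08 (adjusted p = 0.494). Slfn1 hardly declined: 90.0% of its isotype rise and 99.6% of its FcMR rise were left at 24 h. It differed by 0.60, 0.41 and 0.53 between the treatments (adjusted p = 0.0122, 0.0857 and 0.0191). Slfn8 differed by 0.74, 0.67 and 0.55 (adjusted p = 0.00158, 0.00331 and 0.0111).

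The PARP members add ADP-ribose to proteins, and PARP9 works in a complex with the ubiquitin ligase DTX3L. Parp9 and Dtx3l lie head to head and overlap on opposite strands, so reads of the pair could be mixed. Parp14 was at 1460.0, 1514 and 1248 CPM with isotype at 4 h and 2429, 2544 and 2627 with FcMR, from 129, 115 and 95.8 untreated. Its groups did not overlap at any time, and the difference was 0.85, 0.68 and 0.87 (adjusted p = 7.74e-05, 0.000504 and 3.29e-05). Parp9, Parp12 and Dtx3l were also called higher with FcMR at each time, with values from 0.51 to 0.91.

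Parp10 was not called at any time. It was at 57.3, 29.8 and 109 CPM with isotype at 4 h and 116, 126 and 109.7 with FcMR, and at 66.9, 129 and 131 with FcMR at 12 h. Its spread within these groups followed the order of the GC tilt, and its longest transcript has 57.9% GC, the highest of the 52. The difference was 0.83, 0.35 and 0.80 (adjusted p = 0.112, 0.601 and 0.133). With a correction for GC content it was 0.88, 0.57 and 0.98 (adjusted p = 1.71e-06, 0.000153 and 4.55e-07). Parp10 also overlaps Plec on the same strand.

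Trim30a and Trim21 encode TRIM ligases, the second an intracellular antibody receptor. Trim30a differed by 0.65, 0.73 and 0.59 (adjusted p = 0.0119, 0.00516 and 0.0180) and Trim21 by 0.91, 1.14 and 0.57 (adjusted p = 3.67e-05, 2.47e-06 and 0.00225). Both were therefore among the 30 members higher with FcMR throughout in the main fit. The Trim30a 24 h call was lost with the authors' factors, and its 4 and 24 h calls were lost with only the groups compared. Daxx and Sp100 encode components of nuclear bodies. Daxx was at 114, 80.5 and 189 CPM with isotype at 4 h and 283, 289.7 and 255 with FcMR, and at 46.5, 40.5 and 47.4 against 44.5, 32.8 and 52.7 at 24 h, when the groups overlapped. Its difference was 1.11 at 4 h (adjusted p = 0.00252), then 0.23 and -0.06 (adjusted p = 0.621 and 0.914). The order of the Daxx isotype libraries at 4 h was that of the GC tilt, and with the GC correction the 12 h value was 0.42 (adjusted p = 0.000288). Sp100 differed by 0.61, 0.42 and 0.25 (adjusted p = 0.00977, 0.0745 and 0.294). Isg20, an RNA exonuclease, was at 14.1, 6.31 and 23.8 CPM with isotype at 4 h and 57.9, 65.9 and 59.1 with FcMR, a difference of 2.02 (adjusted p = 0.000267). At 12 and 24 h Isg20 differed by 0.82 and 1.01 (adjusted p = 0.0797 and 0.0398). Its isotype libraries at 4 h also followed the GC tilt, and with the GC correction the later values were 1.02 and 1.20 (adjusted p = 3.07e-07 and 3.49e-07). The 12 h difference was also called with DESeq2, with limma-voom and without FcMR 12 h replicate 1. The 24 h call was lost with limma-voom, no expression filter, the authors' factors, and without any 1 of the 24 h libraries other than FcMR replicate 2.

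Fewer members rose than fell from 4 to 12 h. With isotype, 11 members were higher at 12 h than at 4 h and 26 were lower, against 15.9% and 19.3% of genes. With FcMR, 7 were higher and 33 lower, against 21.5% and 18.8%. The share of members that rose thus lay near the background with isotype and below it with FcMR. The GC tilt also differed between these times, from -0.825, -1.582 and 0.641 at 4 h to 0.588, 0.81 and 0.821 at 12 h with isotype. With FcMR it went from -0.37, -0.153 and -0.477 to -0.722, 0.722 and 0.8. GC-corrected values are not given for these changes. From 12 to 24 h none rose, against 7.19% of genes with isotype and 11.2% with FcMR, while 44 fell with isotype and 43 with FcMR, against 9.49% and 12.6%. By group mean, 32 members were highest at 4 h with isotype and 40 with FcMR, 20 and 12 were highest at 12 h, and none was highest at 24 h. The time of the highest mean was the same under both treatments in 44 members. The median share of the peak rise left at 24 h was 31.0% with isotype and 31.9% with FcMR.

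The members that rose from 4 to 12 h under both treatments were Ifi44, Epsti1, Apol9a, Apol9b, Ifi27l2a, Bst2 and Lgals3bp. Their longest transcripts have 40.4% (Ifi44) to 55.8% (Lgals3bp) GC, against a median of 46.3% over the 52 members. Ifi44, a cytoplasmic protein known for limiting virus replication, went from 27.6, 33.7 and 23.5 CPM with isotype at 4 h to 75.3, 67.5 and 76.7 at 12 h. With FcMR it went from 64.1, 58.2 and 60.4 CPM to 188, 127 and 113. The libraries of the 2 times did not overlap under either treatment, and untreated libraries were at 1.36, 0.736 and 0.327 CPM. Ifi44 differed between FcMR and isotype by 1.11, 0.96 and 1.53 (adjusted p = 0.00261, 0.00509 and 9.08e-05).

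Bst2 (chr8:71534255-71537456, minus strand) encodes tetherin, which holds budding virus at the cell surface. It was at 158, 127 and 304 CPM with isotype at 4 h and 475, 620.4 and 759 at 12 h, against 216, 267 and 269 and then 480.4, 871 and 926 with FcMR. The treatments overlapped at both times. The difference was 0.35, 0.30 and 0.67 (adjusted p = 0.462, 0.595 and 0.112), and with the GC correction the 24 h value was 0.84 (adjusted p = 0.000635). At 24 h the FcMR libraries, 449.8, 423 and 466 CPM, were above the isotype libraries, 281, 272 and 287.

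Ifi27l2a, a small membrane protein of uncertain role, had the lowest difference between FcMR and isotype at each time. It lay between 19.9 and 31.7 CPM in the untreated libraries and was at 38.9, 28.5 and 56.3 with isotype at 4 h and 124, 118 and 122 at 12 h. With FcMR it was at 41.4, 55.8 and 43.2 CPM and then at 83.8, 125 and 123. The treatments overlapped at both times. The difference was 0.18, -0.14 and -0.30 (adjusted p = 0.687, 0.800 and 0.444), and without FcMR 12 h replicate 1 the 12 h value was 0.03. Its isotype rise at 4 h, 0.81 (adjusted p = 0.0166), was no longer called when untreated replicate 2, untreated replicate 3 or isotype 4 h replicate 3 was left out.

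Lgals3bp and Lgals9 encode a galectin-binding glycoprotein and a galectin. Lgals3bp was at 456, 325 and 597 CPM with isotype at 4 h and 1091, 1069 and 1181 at 12 h, and FcMR exceeded isotype by 0.69, 0.16 and 0.27 (adjusted p = 0.0199, 0.703 and 0.395). The Lgals3bp isotype libraries at 4 h followed the GC tilt, and with the GC correction the later values were 0.33 and 0.41 (adjusted p = 0.00120 and 0.000150). They were called with the authors' factors too. Lgals9 differed by 0.64, 0.49 and 0.21 (adjusted p = 0.000170, 0.00142 and 0.146). Epsti1 differed by 0.56 at 4 h (adjusted p = 0.000459) and by 0.08 and 0.26 later (adjusted p = 0.697 and 0.0601). In the main fit, each of the 3 was called at 4 h and not at 24 h. Epsti1 was called at 24 h with DESeq2.

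Apol9a and Apol9b are copies of an apolipoprotein L gene that match at 98.5% over 1529 bases, and their counts are uncertain for the same reason as those of Ifit3. The untreated libraries held at most 2 counts of Apol9a and 1 of Apol9b, so no fold against untreated is given. Apol9b was at 1.87, 1.62 and 2.43 CPM with isotype at 4 h and 6.59, 6.47 and 9.50 with FcMR, and at 7.91, 6.89 and 9.68 against 16.3, 21.7 and 16.2 at 12 h. The treatments stood apart at both times. The differences were 1.87, 1.12 and 1.69 for Apol9b (adjusted p = 4.86e-05, 0.000710 and 4.13e-05) and 2.13, 1.39 and 1.88 for Apol9a (adjusted p = 0.00218, 0.00921 and 0.00360). These were among the 3 highest differences at 4 and 24 h.

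The remaining members, Ifi35, Ifi47, Xaf1, Rtp4, Samd9l, Phf11b, Phf11d, Tor3a and Nmi, include an immunity-related GTPase (Ifi47) and a factor linked to cell death (Xaf1). They were all called above untreated with isotype at 4 h, by 1.47 (Tor3a) to 4.44 (Phf11b). Ifi47, Xaf1, Phf11b, Phf11d and Nmi were higher with FcMR at each time, with values from 0.56 to 1.08. Rtp4 was higher at 4 and 12 h (0.54 and 0.37, adjusted p = 0.00337 and 0.0389), and Ifi35 and Tor3a at 4 h only by this test (1.09 and 0.77, adjusted p = 0.00140 and 0.000332). The Rtp4 12 h call was lost with the authors' factors and with only the groups compared. It was also lost with each 12 h library other than FcMR replicate 2 left out in turn. Samd9l was called at no time (0.42, 0.45 and 0.37, adjusted p = 0.165, 0.149 and 0.226), but with the GC correction at all 3 (0.62, 0.33 and 0.25, adjusted p = 2.45e-05, 0.00757 and 0.0370).

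Members were then sorted by whether isotype alone raised them and whether FcMR added more. At 4 h, 47 members were raised by isotype and higher still with FcMR, against 5.76% of all genes, and 28.3% of the 2743 genes raised by isotype. The difference to FcMR was not called in 4 (13.1% of genes), and Trim25 was above untreated with FcMR alone (6.01% of genes). At 12 h the first class held 32 members (4.34% of genes) and the second 18 (15.7%). At 24 h they held 32 (3.99%) and 15 (13.7%). Among all genes raised by isotype, the first class made up 19.7% at 12 h and 18.8% at 24 h, and the second 64.3%, 71.5% and 64.3% at 4, 12 and 24 h. The second class thus held 4 of 51, 18 of 50 and 15 of 47 members raised by isotype, smaller shares than among all such genes. No member was raised by isotype and lower with FcMR at any time, against 1.51%, 1.94% and 3.61% of genes.

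A difference that was not called does not show that the treatments act alike, so the intervals were read as well. Of the members raised by isotype and not called against FcMR, none at 4 h, 4 at 12 h and 7 at 24 h had a 95% interval wholly within 1.5-fold. At 12 h these were Slfn5 (-0.17 to 0.43), Tor3a (-0.09 to 0.44), Lgals3bp (-0.25 to 0.56) and Epsti1 (-0.12 to 0.27). At 24 h they were Mx1, Ifi204, Rtp4, Slfn5, Sp100, Lgals9 and Epsti1 with intervals such as -0.35 to 0.22 for Mx1 and -0.27 to 0.35 for Ifi204. Tor3a and Daxx, which isotype did not raise by this test at 24 h, were also uncalled there with an interval within 1.5-fold. With the GC correction, 50, 46 and 42 members were called higher with FcMR and none lost a call. The calls gained and not given above were those of Ifi35, Dhx58 and Eif2ak2 at 12 and 24 h, Ifi203 at 24 h, and Ifi204, Slfn1 and Sp100 at 12 h, with corrected values from 0.25 (Ifi204) to 0.52 (Dhx58, 12 h). With that correction, the members raised by isotype and not called against FcMR numbered 2, 6 and 10 at 4, 12 and 24 h. Those uncalled under either fit were Ifi27l2a and Bst2 at 4 h, these with Ifit3b, Slfn5, Tor3a and Epsti1 at 12 h, and Mx1, Ifi27l2a, Ifi204, Rtp4, Slfn5, Sp100, Lgals9 and Epsti1 at 24 h.

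At the other end stood the members above untreated with FcMR while isotype was not called. These were Trim25 at 4 h, Slfn2 at 12 h (6.65% of genes), and Parp10 and Tor3a at 24 h (9.01% of genes). For Trim25 and Slfn2 the difference between FcMR and isotype was itself called. For Parp10 and Tor3a at 24 h it was not (0.80 and 0.07, adjusted p = 0.133 and 0.777). The isotype rise of both at 24 h was called with DESeq2, the GC correction, only the groups compared and without both libraries out of title order, and that of Tor3a also with RLE factors and the authors' factors, so their place here was lost in those fits.

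The isotype share, the rise over untreated seen with isotype as a percent of that seen with FcMR on the CPM scale, had a median of 49.5% over 52 members at 4 h. It was 61.3% over 51 members at 12 h and 57.6% over 49 at 24 h, where members not called above untreated with FcMR are left out. At 24 h Ifi205 had the lowest share, 10.2%, after 28.9% and 19.5% at 4 and 12 h. Ifit1 was at 41.9%, 37.9% and 26.4%, and Apol9a at 22.2%, 39.2% and 25.8%. Shares rose from each time to the next in Slfn5 (58.1%, 90.8% and 97.5%), Mx1 (45.6%, 57.2% and 110.1%) and Rtp4 (67.5%, 76.2% and 93.8%). Ifi27l2a had the highest share at each time, 75.8%, 113% and 131%. Shares of 80% or more were seen in 0, 5 and 8 members at 4, 12 and 24 h. The share has no replicate error of its own, since it is a ratio of group means.

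**Figure D5:**
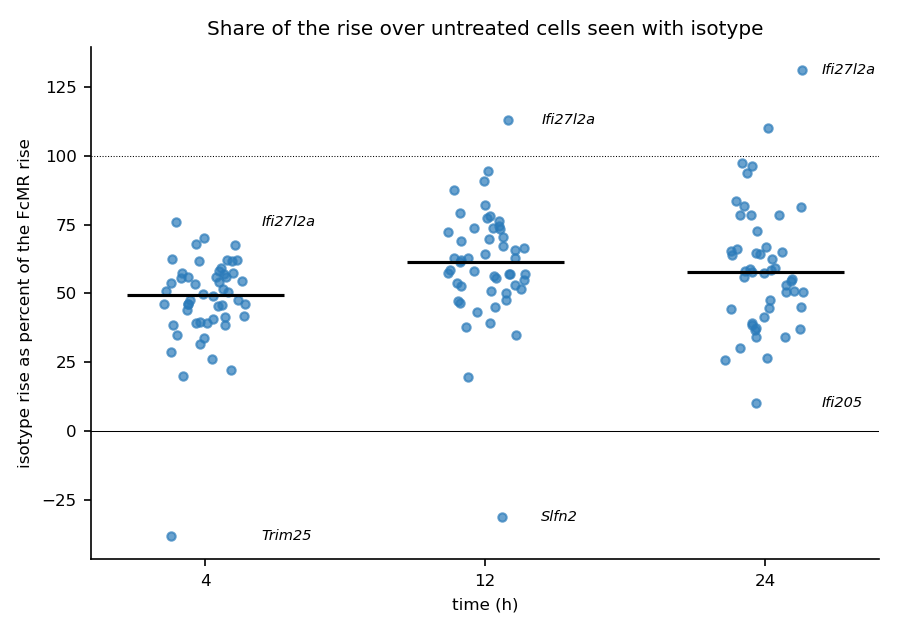
Isotype rise over untreated as a percent of the FcMR rise (y axis) at 4, 12 and 24 h (x axis), with 1 point per member and the median as a bar. The medians are 49.5%, 61.3% and 57.6%, and the lowest and highest members are named. The dotted line marks 100%, an equal rise.

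A joint test asked whether the FcMR minus isotype difference was equal at the 3 times. By edgeR it was called in 8 of the 52 members, against 1484 of the 13468 genes, a share of the members that lies near the background. The difference was smaller at 24 h than at 4 h in 7 of them and larger in 1, against 4.78% and 6.24% of genes. The 7 were Usp18, Cmpk2, Mx1, Dhx58, Zbp1, Slfn5 and Tor3a, with changes of -0.64 (Zbp1) to -1.05 (Mx1), and the change in Ifi205 was 1.22. Usp18, Cmpk2 and Mx1 were called in all 29 fits run, those with a library left out included, and Slfn5 in 15 of the 29. With the GC correction the number of members called was 28, with DESeq2 it was 16, and leaving out a library gave 5 to 13, the lowest without isotype 4 h replicate 1, FcMR 4 h replicate 1 or FcMR 4 h replicate 2 and the highest without FcMR 24 h replicate 3. The change of the difference over time in the other members was not called, which does not show that it was constant.

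Genes that make and carry the interferon signal were read from a list of 30, of which 27 were in the table. At 4 h, 19 were higher with isotype than untreated and 1 was lower, against 20.4% and 15.2% of genes. With FcMR against isotype 14, 9 and 8 were higher at 4, 12 and 24 h, and 0, 0 and 1 were lower, against 8.62%, 8.61% and 11.4% of genes higher and 9.13%, 7.49% and 9.44% lower, with medians of 0.45, 0.16 and 0.28. Called either way, the list's 9 at 12 h became 5 without any 1 of the isotype 12 h libraries, and its 9 at 24 h became 5 without isotype 24 h replicate 2. The gene of interferon beta itself, Ifnb1, was low: 0.291, 0.0460 and 0 CPM untreated, 1.01, 0.180 and 0.348 with isotype at 4 h, and 3.12, 4.33 and 3.35 with FcMR. All 3 FcMR libraries were above all isotype libraries, which held 1 to 7 counts, and the fitted difference was 2.79 (adjusted p = 0.00194). At 12 and 24 h Ifnb1 was at most 0.242 CPM in every library. Its receptor chain Ifnar2 was higher with FcMR at each time, by 0.57, 0.69 and 0.85 (adjusted p = 6.33e-05, 5.94e-06 and 3.16e-07), and Ifnar1 was not called (0.18, 0.10 and 0.03, adjusted p = 0.0554, 0.331 and 0.781).

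Stat2 and Irf9 encode parts of ISGF3. Stat2 was higher with FcMR than with isotype at 4 h by 0.78 and Irf9 by 0.25 (adjusted p = 3.74e-05 and 0.0290), and neither was called later. Irf7, the factor that amplifies interferon production, was called at 4 h only by this test, by 1.47 (adjusted p = 0.000911), with 0.63 and 0.62 later (adjusted p = 0.123 and 0.112). Socs3, a feedback inhibitor that also answers to other cytokines, differed by 1.72, 2.15 and 1.70 (adjusted p = 0.000640, 7.11e-05 and 0.000783).

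Other gene lists give the members a frame, and the shares of all genes called higher with FcMR, 8.62%, 8.61% and 11.4% at 4, 12 and 24 h, apply to each. Of 10 OAS family genes in the table, RNA-activated synthetases also induced by interferon, 8 were tested, and 7, 2 and 3 were higher with FcMR than isotype at 4, 12 and 24 h, with medians of 0.94, 0.28 and 0.35. Of 18 guanylate-binding and immunity-related GTPases, 13, 13 and 11 were higher, with medians of 0.92, 1.01 and 0.94. Of 20 NF-kB targets, 18, 17 and 15 were higher, with medians of 2.60, 1.71 and 1.37, against 0.86, 0.63 and 0.60 for the 52 members. The differences between lists were not tested.

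The 8 macrophage markers summed to 20538 to 35367 CPM, most of it from Lyz2, whose group means ran from 17926 to 28184 CPM. Adgre1 had a mean of 208 CPM untreated, and 837 with isotype and 1507 with FcMR at 24 h. Fcgr1 had a mean of 58.7 CPM untreated, and 178 with isotype and 79.6 with FcMR at 24 h. Itgam, Mertk, Lyz2 and Cd68 also had lower means with FcMR than with isotype at 24 h, while Cd14 and Csf1r had higher ones. With FcMR against isotype, 3, 2 and 2 of these 8 were called higher and 1, 1 and 4 lower at 4, 12 and 24 h. The 8 dendritic cell markers summed to 1467 to 1532 CPM with isotype and 1661 to 1827 with FcMR at 4 h, to 1734 to 1798 and 1661 to 1881 at 12 h, and to 1418 to 1560.2 and 1600.0 to 1676 at 24 h. These sums were thus higher with FcMR without overlap at 4 and 24 h, and none of the 8 was at 0. Ccr7, one of them, had means of 302 and 442 CPM at 4 h and 395 and 672 at 24 h, and the 24 h sum followed it. Itgax, the largest of the 8, had means of 1011 CPM with isotype and 867 with FcMR at 24 h. Dpp4, Clec9a, Xcr1 and Cd209a also had lower means with FcMR at 24 h, while Flt3 and Zbtb46 had higher ones. Between FcMR and isotype 1, 1 and 2 of the 8 were called higher and 0, 2 and 1 lower, and their part in the members' FcMR difference was not tested. Plasmacytoid dendritic cells are a known source of interferon, and their 8 markers summed to 72.0 to 77.8 CPM untreated, 83.5 to 98.6 with isotype at 4 h and 124 to 130.0 with FcMR. No marker of that list was at 0 in all libraries of a group, but the sum followed Tcf4, whose means were 18.4, 40.7 and 80.1 CPM in these groups. The means of Ccr9 (0.686, 1.07 and 1.83 CPM) and Runx2 (23.0, 26.7 and 29.1 CPM) rose as well. At 4 h, 3 of the 8 were called higher and 2 lower with FcMR than untreated, and 1 higher and 1 lower with FcMR than isotype. Spib had means of 15.8, 14.8 and 8.95 CPM, and Cox6a2 ranged from 8.33 to 16.3 CPM untreated, 0.902 to 9.85 with isotype and 2.97 to 5.03 with FcMR, so both were lower in every FcMR library than in any untreated one. Siglech, the defining marker, was at most 1.55 CPM in any library. The 9 granulocyte markers summed to 1402 to 1632 CPM untreated, 1014 to 1357 with isotype and 994 to 1179.8 with FcMR at 4 h, and 183 to 218 and 204 to 228 at 24 h. They thus fell over the same hours as most members under both treatments, and their part in the members' decline was not tested. Between FcMR and isotype at 4 h none of the 9 was called. B cell markers summed to at most 7.59 CPM and T and NK cell markers to at most 2.32 CPM.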

How the data were processed

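RNA was sequenced as 75 bp single-end reads from 21 libraries, 3 in each of 7 groups taken from the sample titles. The deposited raw table holds estimated counts per gene, as whole numbers, and the deposited normalized table is a linear signal in which the authors divided each raw value by a gene and library factor. Per the submitters' processing notes, CASAVA 1.8.2, kallisto 0.44.0 and DESeq2 were used with builds mm10 and GRCm38. Estimated counts may assign reads of near-identical genes to the wrong copy. Whether counting used strand is not given in the sources used here.

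Every gene in the raw table has at least 10 counts over the libraries. IDs were matched, without version, to GENCODE M21 symbols (23187 of 23250), and 46 member IDs also matched in version. Of the 52 members, 16 overlap another annotated gene. Levels are CPM after TMM scaling. Tests were edgeR's quasi-likelihood tests (edgeR 4.0.16, R 4.3.3) in 1 fit of all libraries with a coefficient per group, on the 13468 genes that passed filterByExpr (minimum count 10). Genes were called at a Benjamini-Hochberg adjusted p under 0.05 over all genes tested, and 95% intervals come from the fit. The method was tested on simulated counts drawn without a GC tilt between libraries, so that test does not cover the tilt seen here. No replicate pair agreed within sampling noise (the lowest chi-square per degree of freedom was 3.09). Intervals and floors cover counting error only where they rest on single libraries, since reads carry no molecular identifiers. Promoter windows came from RefSeq (GRCm38.p6), and 12 members without an entry there are Usp18, Mx1, Mx2, Ifi27l2a, Ifi204, Dhx58, Rtp4, Zbp1, Parp9, Parp10, Parp14 and Tor3a.

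Members, gene lists, markers, alternatives and the rule for naming genes were chosen with earlier results of these data known. The rule names all members, with full values for those whose roles or differences are described one by one. The alternatives were DESeq2 1.42.0, limma-voom (limma 3.58.1), RLE factors, a mean count minimum of 10, no filter, the authors' factors as offsets, a per-library loess correction for transcript GC content (span 0.3), the replicate number as a block, only the groups compared, each library left out in turn, an adjusted p under 0.01 for the sorting by isotype and FcMR, and a shorter promoter window or longer motif.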

Additional observations from a re-analysis of the deposited data

Results flagged for a closer look

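The difference between FcMR and isotype changed over 4, 12 and 24 h in 8 members by the joint edgeR test of the 3 differences, and each is given with its adjusted p. The difference was smaller at 24 h than at 4 h in Usp18 (adjusted p = 0.00316), Cmpk2 (0.0129), Mx1 (0.00436), Dhx58 (0.0266), Zbp1 (0.0173), Slfn5 (0.0455) and Tor3a (0.0259). It was larger at 24 h in Ifi205 (0.0136), where FcMR minus isotype was 1.76, 2.28 and 2.98 on the log2 scale. Over the 29 fits run, the highest adjusted p was 0.0185 for Usp18, 0.0481 for Cmpk2 and 0.0182 for Mx1. Ifi205 was not called without isotype 24 h replicate 2 (0.0511), nor Zbp1 without FcMR 4 h replicate 1 (0.0536). Dhx58 and Tor3a reached 0.0711 and 0.0633 with single 4 h libraries left out, and Slfn5 reached 0.121. Of the 13468 genes tested, 1484 were called by this test.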

How the results depend on the processing

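Of 4990 values recomputed for single members, 4813 kept their direction and their side of the threshold, 88 lost the call, 73 gained it and 16 changed sign, none of these with a call in the main fit. The sign changes, as log2 FcMR minus isotype unless stated, were Trim25 at 0.01 (isotype against untreated, 4 h), Slfn5 and Tor3a at -0.01 and Daxx at 0.06 (24 h) with the authors' factors, Ifi204 at -0.07, Slfn5 at -0.05 and Daxx at 0.12 (24 h) with the GC correction, and Ifi27l2a at 0.03 and Slfn5 at -0.00 (12 h) without FcMR 12 h replicate 1, alone or with isotype 4 h replicate 3. With each library left out in turn the ranges were -0.23 to 0.03 for Ifi27l2a and -0.00 to 0.19 for Slfn5 at 12 h, and at 24 h -0.24 to 0.09 for Mx1, -0.13 to 0.20 for Ifi204, -0.12 to 0.17 for Slfn5 and -0.21 to 0.12 for Daxx, with signs changed at 24 h without FcMR replicate 2 (Ifi204, Slfn5, Daxx), FcMR replicate 3 (Mx1) or isotype replicate 2 (Ifi204).

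Members called in the FcMR change from 12 to 24 h numbered 26 with only the groups compared, where fewer libraries enter the fit, against 43. The joint test over time called 16 members with DESeq2, 28 with the GC correction, 13 with only the groups compared and 5 to 13 with a library left out, against 8. Interferon pathway genes called between FcMR and isotype at 4 h, 14 in the main fit, numbered 22 with the GC correction and 9 with only the groups compared, and at 12 h, 9 in the main fit, 14 with the GC correction. With a library left out they numbered 5 to 8 at 12 h and 5 to 9 at 24 h, against 9 at both. Members raised by isotype and not called against FcMR at 4 h, 4 in the main fit, numbered 2 with the GC correction, 9 with only the groups compared, 9 at an adjusted p under 0.01, 1 without both libraries out of title order and 2 to 7 with a library left out. At 12 h, 18 in the main fit, they numbered 6 with the GC correction. Beyond fewer libraries in a fit, the cause was not tested. FcMR against isotype called 50, 46 and 42 members with the GC correction and 45 to 49, 28 to 34 and 27 to 38 with a library left out.

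Same-numbered libraries did not deviate together (correlations from -0.166 to 0.338, with values of 0.1 or less in every comparison), so the numbers were not taken as pairs. With the replicate block, FcMR against isotype called 48, 37 and 33 members. Depth limits Ifnb1, Apol9a and Apol9b most, whose lowest groups held few counts.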
